A study of Homo sapiens with 12 samples.

Results

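The ERBB receptors and their EGF-like ligands were examined in the NCI-H520 lung squamous carcinoma line. The 10 genes were taken by name from the raw count table of 58302 Ensembl genes: the 4 receptors *EGFR*, *ERBB2*, *ERBB3* and *ERBB4*, and the ligands *AREG*, *EREG*, *HBEGF*, *TGFA*, *BTC* and *NRG1*. All 10 were among the 17849 genes that passed the filter on low counts and were tested. The 12 RNA-seq libraries formed 4 groups of 3. OV-L1-FGGY cells, which stably carry the *L1-FGGY* chimeric transcript from a lentivirus, received either DMSO at 0.2% or ML355, an inhibitor of 12-lipoxygenase, at 10 μM in the same volume of DMSO. A further group is labelled as OV-L1-FGGY cells given NVR (nevirapine, a reverse transcriptase inhibitor) at 450 μM, also with DMSO at 0.2%. The last is a control group in DMSO at 0.2%, whose label names no vector and which was read as the empty vector line OV-CTRL. Medium with the agent replaced the growth medium (RPMI1640 with serum) 5 h after seeding, and the length of the treatment was not given in the sources used here. No source says that the 3 libraries of a group came from separate cultures, so the p-values measure the spread between these libraries, which may be technical.

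*EGFR*, *ERBB2*, *ERBB3* and *ERBB4* are receptor tyrosine kinases that work as dimers. Amphiregulin, epiregulin, HB-EGF, TGF-alpha and betacellulin are made as membrane-bound precursors, are cut free by ADAM proteases and bind EGFR (HB-EGF, epiregulin and betacellulin also ERBB4), whereas neuregulin 1 binds ERBB3 and ERBB4. ERBB2 has no ligand of its own and ERBB3 has little kinase activity, so both signal in partnership with the other receptors, mainly through the RAS-ERK and PI3K-AKT chains. EGFR is often abundant in squamous lung carcinoma, and its ligands are themselves among the genes that EGFR signalling induces.

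Total counts were 16242082 to 27004768 per library, and 3 counts, the limit that a count of 0 allows (for counting error only), corresponded to 0.111 to 0.172 CPM (counts per 1000000 counts of the library, with TMM scaling). *FGGY*, the gene of the chimeric transcript, had 4782 to 6196 counts in OV-L1-FGGY with DMSO and 5080 to 7346 with ML355, but 82 to 103 in the NVR-labelled libraries and 78 to 91 in OV-CTRL. The NVR-labelled libraries therefore went against their label in the gene that was introduced and are called by their label below; they were set against both DMSO groups. Of 8 squamous markers, *KRT5*, *KRT6A*, *DSG3* and *PKP1* had 3 counts or fewer in every library, *SOX2* was at that level in both groups of OV-L1-FGGY and *KRT14* in the NVR-labelled libraries and OV-CTRL, while all 4 general epithelial markers were detected in each group. The summed squamous markers ranged from 175 to 202 CPM in OV-L1-FGGY with DMSO, 301 to 385 with ML355, 10.4 to 19.3 in the NVR-labelled libraries and 21.1 to 25.9 in OV-CTRL. *TRIM29* made up nearly all of this sum in OV-L1-FGGY, with means of 183, 348, 1.69 and 4.09 CPM in the same order. *KRT14* was also higher in OV-L1-FGGY. *SOX2* and *TP63* went the other way, with means of 16.0 and 3.03 CPM in OV-CTRL and 10.9 and 2.53 in the NVR-labelled libraries. *TP63* averaged 0.709 CPM in OV-L1-FGGY with DMSO and 0.218 with ML355. The 6 fibroblast markers summed to 341 to 360, 112 to 122, 19.7 to 22.4 and 20.5 to 25.7 CPM in the order of groups given for the squamous sum. *LUM*, *DCN* and *COL1A1* made up most of this sum in OV-L1-FGGY with DMSO, with means of 223, 60.9 and 55.6 CPM. *DCN* had 0 counts and *LUM* at most 2 in the NVR-labelled libraries and OV-CTRL, where *COL1A1* made up nearly all of the sum. *COL1A2* had at most 2 counts in every library. The epithelial markers summed to 861 to 886 CPM in OV-L1-FGGY with DMSO and 436 to 561 with ML355, and to 1906 to 3170 in the NVR-labelled libraries and 3826 to 5292 in OV-CTRL. *KRT8* and *KRT18* made up nearly all of this sum, and *CDH1* had the same order of groups. *EPCAM* went the other way, with means of 8.87 CPM in OV-L1-FGGY with DMSO and 9.17 with ML355. It averaged 0.859 CPM in the NVR-labelled libraries and 1.57 in OV-CTRL. The 3 endothelial markers summed to 8.89 to 9.41 CPM in OV-L1-FGGY with DMSO and at most 0.690 elsewhere. The 5 leukocyte markers summed to 1.66 to 14.6 CPM and the 4 adenocarcinoma markers to 0.345 to 10.6 CPM, both highest in the NVR-labelled libraries. *CD14*, at a mean of 11.1 CPM, made up most of the leukocyte sum there. *PTPRC* had 0 counts in those libraries and in OV-CTRL, and was highest with ML355 (2.78 CPM). The adenocarcinoma sum there was mostly *NAPSA* (7.84 CPM), whereas *NKX2-1* was highest in OV-CTRL (0.999 CPM against 0.691 in the NVR-labelled libraries). The part of these marker differences in the results below was not tested.

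With ML355, transcripts of 5 of the 6 ligands rose and those of 2 of the 4 receptors fell. *AREG*, *EREG*, *HBEGF*, *TGFA* and *NRG1* were higher than with DMSO in OV-L1-FGGY, and *ERBB2* and *ERBB3* were lower. In that comparison 21.3% of all tested genes were called higher and 23.5% lower (edgeR's quasi-likelihood test, adjusted p under 0.01), against 5 and 2 of the 10 members. The median log2 fold change was 1.17 over the 6 ligands (1.53 without the fitted value of *BTC*, which had 3 counts or fewer in both groups) and −0.45 over the receptors, and 0 over all genes. In bulk RNA, fewer cells of a type and less RNA per cell cannot be told apart.

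*AREG* (ENSG00000109321, chromosome 4) encodes amphiregulin, a low-affinity EGFR ligand. It stood at 4.47, 3.89 and 5.09 CPM in the 3 OV-L1-FGGY libraries with DMSO and at 21.0, 20.7 and 22.7 with ML355. All 3 treated libraries lay far above the untreated ones. The fold change of 4.77 (log2 2.26 ± 0.14 SE, adjusted p = 4.08e-09 by edgeR) was the largest among the members in this comparison, and it remained between 2.15 and 2.35 (log2) when each library was left out. *HBEGF* (ENSG00000113070, chr5:140332843-140346603 in hg38, GENCODE), whose product binds EGFR and ERBB4 and also heparan sulfate, went from 9.29, 7.10 and 8.77 CPM to 20.9, 29.3 and 22.5. Its groups were also apart, with replicate 2 of the ML355 group the highest (log2 1.53 ± 0.17 SE, adjusted p = 1.36e-06).

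*EREG* (ENSG00000124882, chromosome 4), which encodes epiregulin, measured 57.1, 51.3 and 48.2 CPM with DMSO against 84.1, 111 and 77.1 with ML355 (log2 0.80 ± 0.15 SE, adjusted p = 2.19e-04). *TGFA* (ENSG00000163235, chr2:70447284-70554193), which encodes the high-affinity EGFR ligand TGF-alpha, measured 64.7, 60.4 and 60.6 CPM against 80.9, 101 and 82.8 (log2 0.51 ± 0.12 SE, adjusted p = 0.00149). For both genes the groups did not overlap and replicate 2 of the ML355 group was again the highest. The *TGFA* call was lost when libraries were scaled by their size alone, where its log2 fold change was 0.39 and its adjusted p 0.044 by edgeR; that scaling moved the median of all genes by −0.13.

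*NRG1* (ENSG00000157168) and *BTC* (ENSG00000174808) were near the limit of detection in OV-L1-FGGY. Neuregulin 1 had 3, 4 and 6 counts with DMSO and 14, 10 and 16 with ML355, or 0.228 ± 0.067 against 0.682 ± 0.163 CPM (SD, n = 3). The rise passed the threshold (log2 1.54 ± 0.37 SE, adjusted p = 0.00204 by edgeR), but not with limma voom (adjusted p = 0.0275), with the library size alone (0.0108), without replicate 1 of the DMSO group (0.0111) or without replicate 3 of the ML355 group (0.0117). *BTC*, which encodes betacellulin, had 3, 1 and 0 counts with DMSO and 0, 2 and 1 with ML355, so no fold is given.

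Of the 5 ligands called higher with ML355, *AREG*, *EREG* and *HBEGF* are shown here. The 250 bases before their RefSeq start sites (GRCh38.p14) are printed, each 5′ to 3′ on the strand of the gene. The 2 windows of *TGFA* hold 147 and 192 annotated exon bases and are not printed, and *NRG1* was left out. *AREG* and *EREG* lie on the plus strand of chromosome 4 (chr4:74444886-74445135 and chr4:74364895-74365144) and *HBEGF* on the minus strand of chromosome 5 (chr5:140346604-140346853); none of these windows holds an annotated exon. Capitals mark 5 motifs searched on both strands, namely the TATA box by its letters TATAAA, the CCAAT box, the GC box by its letters GGGCGG, the cAMP response element by its letters TGACGTCA and the AP-1 site by its letters TGANTCA.
AREG: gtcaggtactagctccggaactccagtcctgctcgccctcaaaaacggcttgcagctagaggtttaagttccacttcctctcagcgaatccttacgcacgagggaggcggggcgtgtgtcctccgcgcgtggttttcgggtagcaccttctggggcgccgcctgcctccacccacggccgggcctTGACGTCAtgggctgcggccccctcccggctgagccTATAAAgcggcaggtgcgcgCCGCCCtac
EREG: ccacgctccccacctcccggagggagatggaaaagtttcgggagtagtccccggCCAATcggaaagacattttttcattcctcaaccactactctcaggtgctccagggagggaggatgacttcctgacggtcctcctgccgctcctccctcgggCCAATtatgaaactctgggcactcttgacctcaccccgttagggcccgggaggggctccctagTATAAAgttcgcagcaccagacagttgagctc
HBEGF: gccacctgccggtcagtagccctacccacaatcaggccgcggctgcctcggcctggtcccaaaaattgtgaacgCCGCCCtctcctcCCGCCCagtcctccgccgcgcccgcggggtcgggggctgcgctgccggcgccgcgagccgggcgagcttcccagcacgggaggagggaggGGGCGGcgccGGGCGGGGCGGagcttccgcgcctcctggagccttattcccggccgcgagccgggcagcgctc
*AREG* held TATAAA 29 bases and TGACGTCA 65 bases before its start, and a GC box 9 bases before it. TATAAA lay 32 bases before the *EREG* start, together with 2 CCAAT at 95 and 196 bases. The *HBEGF* window held no TATA box, CCAAT box or cAMP response element and had 5 GC boxes, of which 2 overlapped in 1 base. TATAAA was found in 10.7% of 35116 RefSeq windows of this length, TGACGTCA in 1.65%, GGGCGG in 42.6%, CCAAT in 32.0% and TGANTCA in 6.57%. TGANTCA was in none of the 3 windows. A match is a string of letters and was not shown to be a site.

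**Figure D1:**
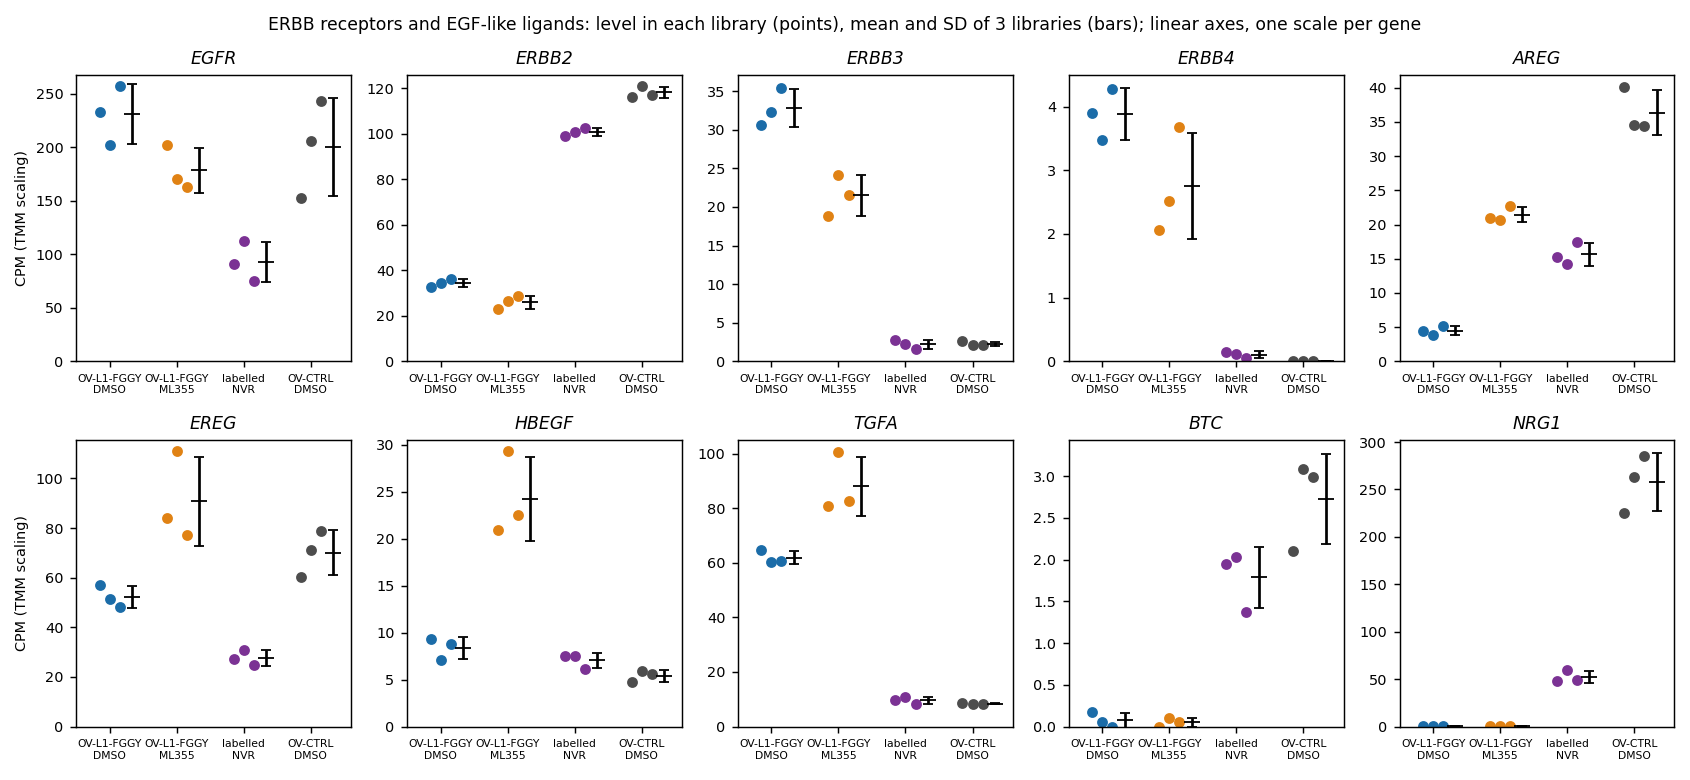
Level of each receptor and ligand in CPM with TMM scaling (vertical axis, linear from 0, one scale per gene) in the 3 libraries of each group (points), with the mean and SD beside them. *AREG*, *EREG*, *HBEGF* and *TGFA* lie higher with ML355 than with DMSO in OV-L1-FGGY, and *NRG1* is near 0 in both of those groups but at 225 to 285 CPM in OV-CTRL.

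Per length, *EGFR* (ENSG00000146648, chr7:55019017-55211628) was the most abundant receptor transcript in OV-L1-FGGY. It measured 233, 202 and 258 CPM with DMSO and 202, 170 and 163 with ML355. The groups overlapped, since the highest treated library lay within the untreated range, and the difference was not called (log2 −0.37 ± 0.17 SE, adjusted p = 0.0748 by edgeR). With only these 2 groups in the fit, without the NVR-labelled libraries and OV-CTRL, it passed at −0.36 (adjusted p = 0.00977 by edgeR). In that fit *AREG*, *EREG*, *HBEGF* and *TGFA* were still called higher and *ERBB2* and *ERBB3* lower, and *NRG1* and *BTC* did not pass the filter on low counts.

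*ERBB2* (ENSG00000141736, chr17:39687914-39730426) measured 32.8, 34.3 and 36.2 CPM with DMSO and 22.9, 26.4 and 28.5 with ML355, a fall without overlap (log2 −0.41 ± 0.11 SE, adjusted p = 0.00332 by edgeR). *ERBB3* (ENSG00000065361, chr12:56076799-56103505) went from 30.6, 32.3 and 35.5 to 18.8, 24.2 and 21.5 CPM (log2 −0.61 ± 0.15 SE, adjusted p = 0.00279), also without overlap. Both calls depended on single libraries. The *ERBB2* call was lost without replicate 2 (adjusted p = 0.0101) or 3 (0.0165) of the DMSO group or replicate 1 of the ML355 group (0.0212), and that of *ERBB3* without replicate 3 of the DMSO group (0.0168) or replicate 1 of the ML355 group (0.0182). *ERBB4* (ENSG00000178568, chr2:211375717-212538841) had 68, 66 and 85 counts with DMSO against 42, 49 and 70 with ML355, which overlapped (log2 −0.50 ± 0.29 SE, adjusted p = 0.155). *ERBB2* shares 571 exonic bases with *MIEN1* and 144 with *PGAP3* on the opposite strand; strand use in the counting is not stated, so reads from these stretches cannot be told apart.

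The NVR-labelled libraries were compared first with OV-CTRL, which they resembled in *FGGY*. *EGFR* and the ligands *AREG*, *EREG* and *NRG1* were lower, and no member was called higher by edgeR. At an unadjusted p under 0.05 *ERBB4* and *HBEGF* were higher, and DESeq2 and limma voom each called *ERBB4*, which had 3 counts or fewer. These 4 calls stand beside 15.3% of all tested genes called lower and 14.5% called higher. With the library size alone, 36.3% of all calls in this comparison were higher instead of 48.8%, and the median of all genes moved by −0.15.

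*EGFR* measured 90.8, 112 and 75.1 CPM in the NVR-labelled libraries and 152, 205 and 243 in OV-CTRL, with no overlap (log2 −1.11 ± 0.17 SE, adjusted p = 1.08e-04 by edgeR). *NRG1* fell from 225, 263 and 285 CPM in OV-CTRL to 47.7, 59.1 and 49.0 (log2 −2.31 ± 0.13 SE, adjusted p = 5.68e-09), the largest change of a member in this comparison among those above 3 counts. *AREG* measured 15.3, 14.2 and 17.5 CPM against 40.1, 34.5 and 34.4 in OV-CTRL (log2 −1.22 ± 0.13 SE, adjusted p = 2.58e-06). *EREG* was likewise lower in every library labelled NVR, at 27.1, 30.9 and 24.6 CPM against 60.4, 71.1 and 78.8 (log2 −1.35 ± 0.15 SE, adjusted p = 3.97e-06). The 4 calls held with each of the 12 libraries left out in turn.

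*ERBB2* and *ERBB3* were not called between these groups. *ERBB2* stood at 99.0, 101 and 103 CPM in the NVR-labelled libraries and 116, 121 and 117 in OV-CTRL, apart by a small margin (log2 −0.23 ± 0.10 SE, adjusted p = 0.0766 by edgeR). *ERBB3* stood at 2.75, 2.26 and 1.59 CPM against 2.57, 2.11 and 2.15 (log2 −0.04 ± 0.20 SE, adjusted p = 0.905). *ERBB4* had 3, 3 and 1 counts in the NVR-labelled libraries and 0 in each OV-CTRL library, so no fold is given. Of the remaining ligands, *HBEGF* measured 7.56, 7.52 and 6.15 CPM against 4.71, 5.91 and 5.56 (log2 0.39 ± 0.18 SE, adjusted p = 0.0802), *TGFA* 9.56, 10.9 and 8.23 against 8.46, 8.33 and 8.40 (log2 0.19 ± 0.13 SE, adjusted p = 0.245) and *BTC* 1.95, 2.04 and 1.37 against 2.10, 3.09 and 2.99 (log2 −0.60 ± 0.35 SE, adjusted p = 0.18). *TGFA* overlapped between the groups. *HBEGF* and *BTC* did not, and how often the groups lay apart over all tested genes was not counted.

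Against OV-L1-FGGY with DMSO, the baseline that their label implies, the NVR-labelled libraries differed in 9 of the 10 members. *ERBB2*, *AREG*, *BTC* and *NRG1* were higher and *EGFR*, *ERBB3*, *ERBB4*, *EREG* and *TGFA* lower, where 38.2% of all tested genes were called higher and 35.4% lower. *NRG1* was higher by 7.78 ± 0.22 (log2, SE; adjusted p = 5.55e-14 by edgeR) and *AREG* by 1.80 ± 0.14 (7.54e-09). *ERBB2* was higher by 1.55 ± 0.10 (9.02e-10), and *BTC* at least 11.1-fold higher with the OV-L1-FGGY libraries put at 3 counts each. *ERBB3* was lower at −3.89 ± 0.18 (1.3e-11), *TGFA* at −2.69 ± 0.13 (1.54e-11), *EGFR* at −1.31 ± 0.17 (3.16e-06) and *EREG* at −0.92 ± 0.15 (2.8e-05), and *ERBB4* was at least 27.4-fold lower. *HBEGF* was not called (−0.24 ± 0.17, adjusted p = 0.209).

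The 2 DMSO groups also differed from each other in 8 of the 10 members. In OV-L1-FGGY with DMSO, *ERBB3*, *ERBB4*, *HBEGF* and *TGFA* were higher than in OV-CTRL and *ERBB2*, *AREG*, *BTC* and *NRG1* lower, against 32.5% of all tested genes called higher and 36.2% lower. *NRG1*, at 0.228 ± 0.067 CPM against 258 ± 30.3 (SD, n = 3), was lower by the widest margin (log2 −10.09 ± 0.22 SE, adjusted p = 4.73e-15 by edgeR). *ERBB3* was higher by 3.85 ± 0.18 (1.4e-11), *TGFA* by 2.88 ± 0.13 (8.47e-12), and *ERBB4* at least 32.5-fold, with OV-CTRL put at 3 counts per library. *AREG* was lower at −3.02 ± 0.14 (1.78e-11), *ERBB2* at −1.78 ± 0.11 (2.25e-10) and *BTC* at least 17.0-fold lower. *HBEGF* was higher by 0.63 ± 0.18 (adjusted p = 0.00362), a call lost without replicate 1 (0.0192) or 3 (0.0143) of OV-L1-FGGY with DMSO or replicate 1 of OV-CTRL (0.0179), and with a filter of 10 counts in every library (0.0114). *EREG* had no overlap but was not called at −0.43 ± 0.15 (0.0142); it passed without replicate 1 of OV-CTRL (0.00727) or replicate 2 of the ML355 group (0.00591), with DESeq2 (0.00546) or its size factors in edgeR (0.00816), with no filter (0.00107) or 10 counts in every library (0.0051), and with only these 2 groups in the fit (0.00362). *EGFR* overlapped between them (0.20 ± 0.17, adjusted p = 0.287). The comparison of these 2 groups shares its DMSO libraries with each of the other comparisons.

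**Figure D2:**
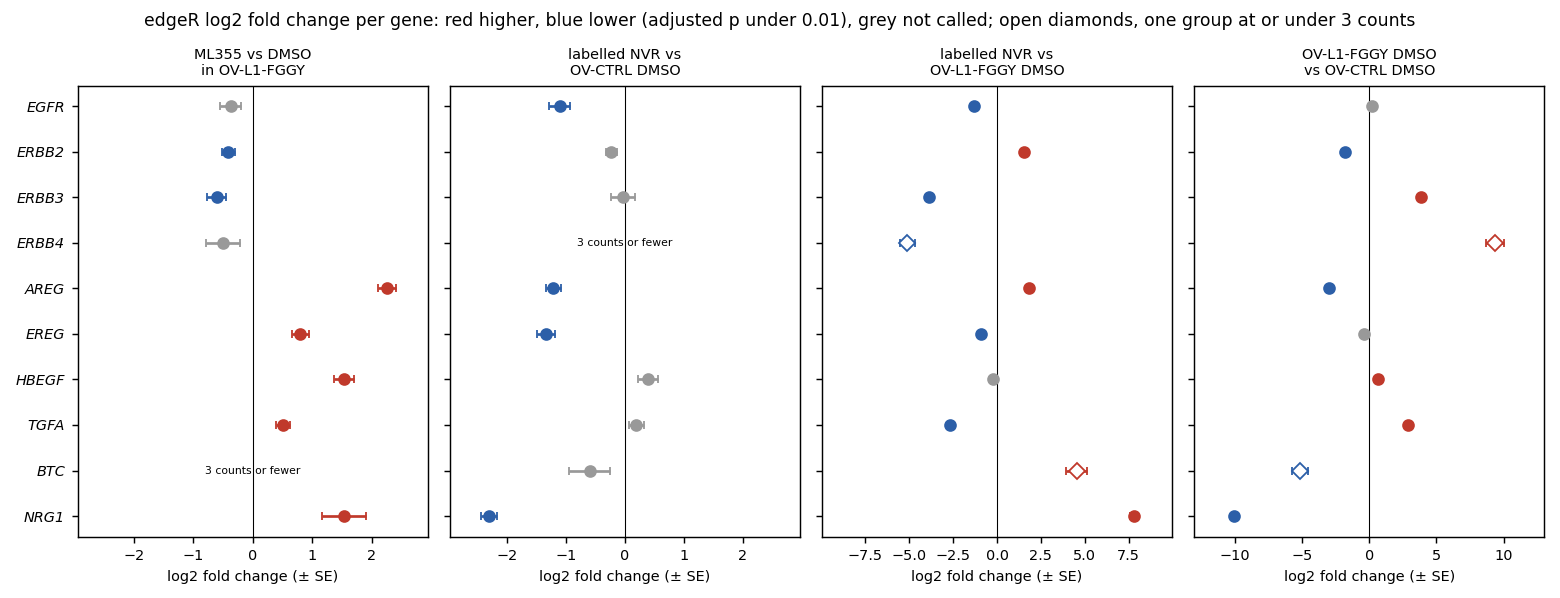
Log2 fold change (horizontal axis, ± SE, a different range in each panel) of the 10 genes in the 4 comparisons, with red for higher, blue for lower and grey for not called at an adjusted p under 0.01. Open diamonds mark genes with one group at or under 3 counts, whose fitted values depend on the prior count. The 5 called ligands lie right of 0 with ML355, and the 3 called ligands lie left of 0 in the NVR-labelled libraries against OV-CTRL.

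The order of the groups differed from gene to gene. *EGFR* was highest in OV-L1-FGGY with DMSO, then OV-CTRL, then ML355, with overlap between neighbours, and lowest in the NVR-labelled libraries, which overlapped no other group. *TGFA* and *HBEGF* were highest with ML355, *AREG*, *ERBB2*, *BTC* and *NRG1* in OV-CTRL, and *ERBB3* and *ERBB4* in OV-L1-FGGY with DMSO. *EREG* was highest with ML355, but its range overlapped that of OV-CTRL. Neighbours in the order also overlapped for *ERBB3* and *TGFA* between the NVR-labelled libraries and OV-CTRL, for *HBEGF* between OV-L1-FGGY with DMSO and the NVR-labelled libraries, and for *ERBB4* and *BTC* between both groups of OV-L1-FGGY.

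The difference between the change with ML355 and that of the NVR-labelled libraries against OV-CTRL was tested itself. This contrast involves different DMSO groups as well as different agents. *AREG* (log2 −3.47 ± 0.19 SE, adjusted p = 3.5e-09 by edgeR), *EREG* (−2.14 ± 0.21, 7.19e-07), *NRG1* (−3.85 ± 0.38, 8.69e-07) and *HBEGF* (−1.14 ± 0.24, 0.00114) were lower in this contrast. Of all tested genes, 17.3% were lower and 16.8% higher. *AREG*, *EREG* and *NRG1* rose with ML355 against its solvent and were lower in the NVR-labelled libraries than in OV-CTRL. The *NRG1* rise was from 3 to 6 counts to 10 to 16 counts, and its call was lost in the refits given above. *TGFA* (−0.32 ± 0.18, adjusted p = 0.152), *ERBB2* (0.18 ± 0.15, 0.328) and *ERBB3* (0.57 ± 0.25, 0.0762) were not called. *EGFR* missed the threshold (−0.74 ± 0.24, adjusted p = 0.0198) but passed without replicate 1 of OV-CTRL (0.00365) or replicate 2 of the NVR-labelled libraries (0.00326), and with no filter (5.09e-04). *ERBB4* was called higher (adjusted p = 0.00589), which rests on the 3 counts or fewer of the NVR-labelled libraries and was lost without replicate 3 of OV-L1-FGGY with DMSO (0.01), each OV-CTRL library (0.0133 to 0.0154) or replicate 1 (0.0187) or 2 (0.0143) of the NVR-labelled libraries.

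Levels were compared between genes per length, as CPM per kb of the union of annotated exons. In OV-L1-FGGY with DMSO, *EGFR* made up 69.1% ± 2.21 (SD, n = 3) of the summed receptor level, *ERBB2* 16.0% ± 1.28 and *ERBB3* 13.4% ± 0.984. With ML355 these shares were 70.9% ± 4.58, 16.1% ± 2.56 and 11.7% ± 1.89. In the NVR-labelled libraries *ERBB2* led with 62.1% ± 4.91 against 36.6% ± 4.78 for *EGFR*, and *ERBB3* held 1.19% ± 0.301. In OV-CTRL *EGFR* had 51.5% ± 5.79 and *ERBB2* 47.7% ± 5.61, whose ranges overlapped, and the order turned with the length of the MANE Select transcript, where *ERBB2* had 56.1% ± 5.49.

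The ligand profile also differed between groups. Per length, *TGFA* was the leading ligand in OV-L1-FGGY with DMSO, at 46.1% ± 0.954 of the 6 ligands (SD, n = 3), followed by *EREG* at 33.5% ± 1.71. With ML355 the *TGFA* share was 32.5% ± 0.256 and that of *AREG* 24.0% ± 3.40, against 10.0% ± 1.35 with DMSO. *AREG* led in the NVR-labelled libraries (43.8% ± 5.37) and in OV-CTRL (43.5% ± 5.07). *NRG1* made up 11.2% ± 1.08 and 23.6% ± 2.12 of the ligands there, and 0.0397% ± 0.0126 in OV-L1-FGGY with DMSO. With the MANE Select length *NRG1* stood above *EREG* in OV-CTRL, at 30.0% ± 2.57 against 21.2% ± 2.09. The summed level of the 6 ligands was 27.3 ± 1.57 CPM per kb with DMSO and 55.0 ± 6.36 with ML355 in OV-L1-FGGY, and 21.8 ± 0.491 in the NVR-labelled libraries and 51.0 ± 1.60 in OV-CTRL. For the receptors the sums were 20.9 ± 2.02, 15.8 ± 0.826, 15.8 ± 1.14 and 24.2 ± 2.92 in the same order.

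**Figure D3:**
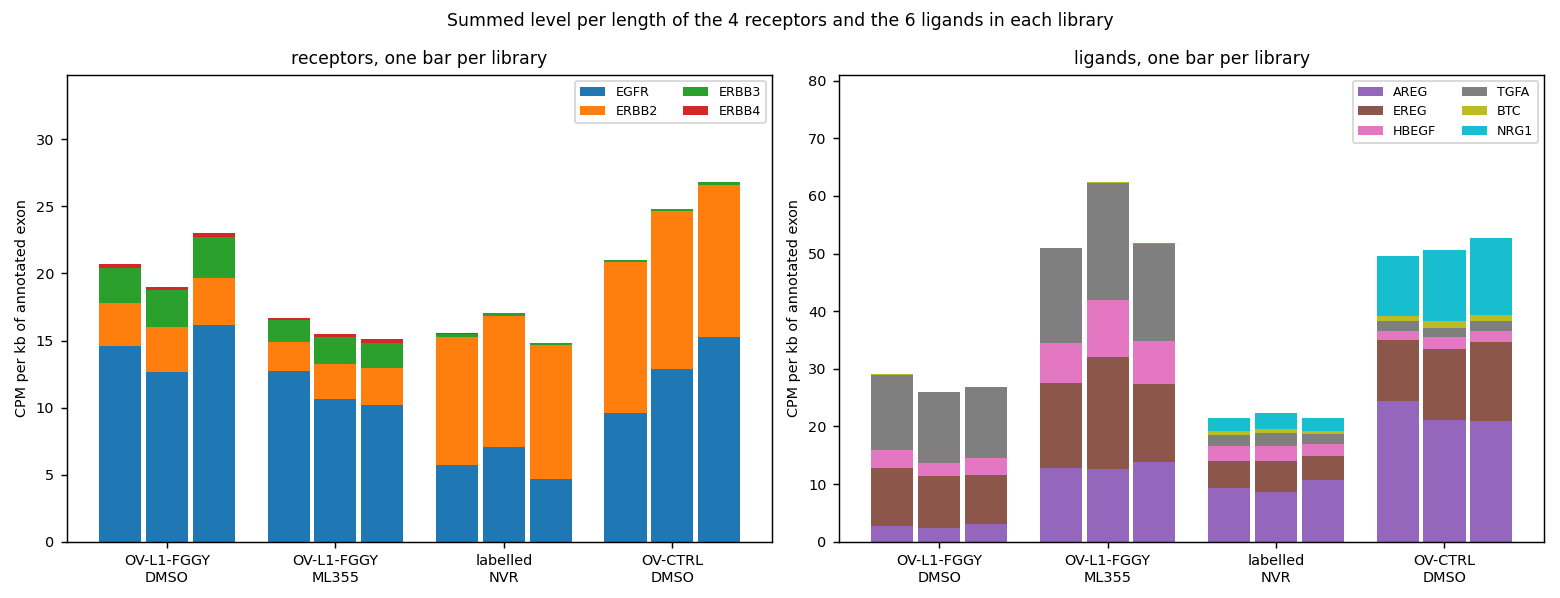
Summed level of the 4 receptors (left) and 6 ligands (right) in CPM per kb of annotated exon, one stacked bar per library and 3 bars per group. The ligand bars of OV-L1-FGGY with ML355 reach 51.0 to 62.4 and those with DMSO 26.0 to 29.1, and *ERBB2* and *NRG1* take larger shares in OV-CTRL than in OV-L1-FGGY.

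*EREG*, *AREG* and *BTC* lie near each other on chromosome 4, at 74365145-74388749, 74445136-74455005 and 74744759-74794523 (hg38, GENCODE), with *EPGN*, the gene of the ligand epigen, at 74308470-74316789. These neighbours did not share one pattern. *EPGN* had 355 to 396 counts in OV-L1-FGGY with DMSO and 349 to 497 with ML355, and 0 to 5 in the NVR-labelled libraries and OV-CTRL. *BTC* had 3 counts or fewer in the 6 OV-L1-FGGY libraries with DMSO or ML355, and 25 to 79 in the other 6. *EREG* and *AREG* were detected in all 12.

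None of the 4 other EGF-like ligands tested (*EGF*, *EPGN*, *NRG2*, *NRG4*) was called with ML355 by edgeR, DESeq2 or limma voom, and 0 passed an unadjusted p under 0.05. In that comparison 21.3% of all tested genes were called higher and 23.5% lower by edgeR. *EGF* had 3 counts or fewer in both groups, and *NRG3* was left out by the filter on low counts. *NRG2*, a neuregulin gene, was higher in the NVR-labelled libraries than in OV-CTRL, with 340 to 413 counts against 199 to 222 (log2 1.10 ± 0.20 SE, adjusted p = 4.68e-04 by edgeR). Of the 4 it was the 1 called there, where 14.5% of all tested genes were higher and 15.3% lower. *NRG2* had 6 to 17 counts in OV-L1-FGGY, so that *NRG1* and *NRG2* were both low in those cells. *NRG4* went the other way, with means of 6.54 CPM in OV-L1-FGGY with DMSO and 5.33 with ML355. It averaged 1.88 CPM in the NVR-labelled libraries and 0.995 in OV-CTRL.

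Among 8 genes for ligand release (ADAM sheddases and rhomboid proteins), 2 fell with ML355, where 23.5% of all tested genes were lower, and 0 were called higher by edgeR (1 at an unadjusted p under 0.05, *RHBDF1*, which DESeq2 called and limma voom did not). *ADAM12* dropped from 27.9, 21.4 and 29.9 CPM to 4.58, 6.64 and 6.83 (log2 −2.13 ± 0.21 SE, adjusted p = 3.47e-07 by edgeR), and *ADAM9* by −0.91 ± 0.20 (9.15e-04). Both were also lower in the NVR-labelled libraries than in OV-CTRL (−2.35 ± 0.24 and −1.22 ± 0.20). In that comparison 2 of the 8 were lower and 1 higher, beside 15.3% and 14.5% of all tested genes. *ADAM17*, the main sheddase of the *AREG* and *TGFA* products, was not called with ML355.

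The list of inhibitors and receptor turnover moved in both directions. With ML355, 3 of 12 tested genes rose and 3 fell, shares near the 21.3% and 23.5% of all tested genes. *RNF41*, which encodes the ubiquitin ligase NRDP1 that targets ERBB3, rose from 35.6 to 38.3 CPM with DMSO to 86.5 to 98.8 (log2 1.29 ± 0.11 SE, adjusted p = 5.64e-08 by edgeR). *ERRFI1*, the gene of the feedback inhibitor MIG6, rose by 1.05 ± 0.16 (4.49e-05) and *LRIG2* by 0.58 ± 0.12 (4.83e-04; 0.0126 with the library size alone). Against OV-CTRL, 5 of the 12 were lower in the NVR-labelled libraries and 0 higher, beside 15.3% and 14.5% of all tested genes. At an unadjusted p under 0.05, with DESeq2 or with limma voom, 0 were higher. *ERRFI1* was at −1.24 ± 0.16 (1.89e-05) and *LRIG3* at −0.82 ± 0.17 (0.00137, and 0.0116 with only these 2 groups in the fit).

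Downstream of the receptors, 2 of 16 adaptor and RAS-ERK genes rose with ML355 and 4 fell, beside 21.3% and 23.5% of all tested genes. *SOS1*, a RAS exchange factor, changed by −1.15 ± 0.14 (adjusted p = 3.29e-06 by edgeR), *PTPN11*, the phosphatase SHP2, by −1.05 ± 0.20 (3.65e-04) and *BRAF* by 0.96 ± 0.13 (1.68e-05). In the NVR-labelled libraries against OV-CTRL, 3 were higher and 4 lower, beside 14.5% and 15.3% of all tested genes. *PTPN11* was at −1.22 ± 0.21 (2.03e-04) and *NRAS* at −0.64 ± 0.12 (5.15e-04). In the PI3K-AKT chain, 3 of 9 tested genes fell with ML355, beside 23.5% of all tested genes. *PIK3R3*, a regulatory subunit gene of PI3K (−1.66 ± 0.16, 2.67e-07) and *PDPK1* (−1.21 ± 0.16, 1.11e-05) were among them. In the NVR-labelled libraries against OV-CTRL, 1 of the 9 was lower, beside 15.3% of all tested genes. It was *AKT1* (−0.70 ± 0.15, 0.00119, and 0.0166 with only these 2 groups in the fit).

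The ERK output genes, which are transcribed in response to ERK activity, showed no common direction. With ML355, 3 of 10 rose and 2 fell, near the 21.3% and 23.5% of all tested genes, with a median log2 fold change of 0.17 over the list and 0 over all genes. *ETV5* (0.60 ± 0.10, adjusted p = 1.18e-04 by edgeR) and *EPHA2* (0.56 ± 0.12, 7.16e-04; 0.0202 with the library size alone) were higher and *CCND1*, the gene of cyclin D1, lower (−0.93 ± 0.12, 8.34e-06). In the NVR-labelled libraries against OV-CTRL, 2 were higher and 1 lower, near the 14.5% and 15.3% of all tested genes. *PHLDA1* was at 0.66 ± 0.11 (2.28e-04) and *EPHA2* at −0.65 ± 0.12 (3.57e-04). 

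**Figure D4:**
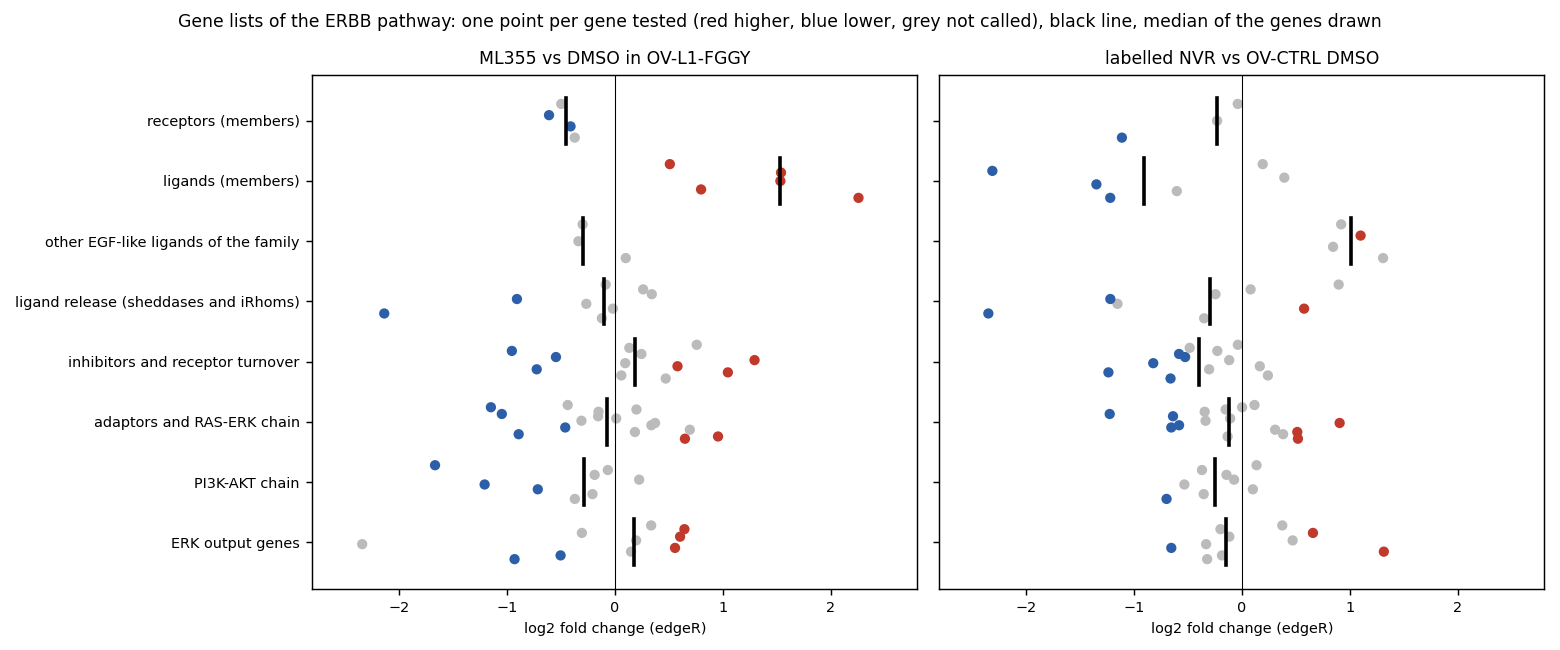
Log2 fold change (horizontal axis) of each tested gene in the lists of the pathway, with ML355 (left) and in the NVR-labelled libraries against OV-CTRL (right), with red for higher, blue for lower, grey for not called and a black line at the median of the genes drawn; genes with both groups at 3 counts or fewer and 1 gene that is not reported here are not drawn. On the left panel the 5 ligands drawn lie right of 0 and the 4 receptors left of 0; on the right panel the 4 other EGF-like ligands lie right of 0, with *NRG2* the one called.

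Over the 12 libraries, the genes whose pattern was most like that of *EGFR*, the receptor with the highest level per length, were *TMC5*, *TRAM1* and *BOD1L1*. Their root mean square difference from *EGFR* in log2 CPM, after centring each gene on its mean, was 0.139, 0.144 and 0.150. *TMC5* averaged 9.73 CPM in OV-L1-FGGY with DMSO, 7.33 with ML355, 3.42 in the NVR-labelled libraries and 8.35 in OV-CTRL, the same order of groups as *EGFR*.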

How the data were processed

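RNA-seq of NCI-H520 cells was analysed in 4 groups of 3 libraries. According to the submitters' processing notes, reads were aligned to hg38 with STAR 2.5.3a and counted per gene with HTSeq 0.11.2. The deposited values are raw counts per Ensembl gene, made by the authors and not normalized; the annotation release, strand and handling of multi-mapped reads are not given in the sources used here. The labels and the study's methods name different library kits.

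Symbols, positions and exon lengths were taken from GENCODE 44. Counts were filtered with filterByExpr, scaled by TMM and fitted over all 12 libraries with edgeR 4.0.16 in R 4.3.3 (robust quasi-likelihood test), and p-values were adjusted by Benjamini-Hochberg over the 17849 genes tested. Genes were called at an adjusted p under 0.01, the threshold of the study, whose own test was limma voom. The common biological coefficient of variation was 0.143. Standard errors were derived from the fold change and its F statistic. The fit was tried on simulated counts with the same coefficient of variation for every gene and changes in the ML355 group only. These settings are simpler than the data, so that trial does not measure the error of the calls here. DESeq2 1.42.0, limma 3.58.1, other scalings and filters, a replicate block and each library left out were tried. Counting error alone is covered by the limit of 3 counts.

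All 10 members are named. From each other list, up to 3 genes with the smallest adjusted p with ML355 and up to 2 in the NVR-labelled libraries against OV-CTRL are named, with the 3 genes most like *EGFR*; *ADAM17* and the other EGF-like ligands were added after their values were seen. Members and lists were chosen with earlier results of these data known. The single markers given beside the marker sums were named after their values were seen. One gene of the lists is not reported here.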

Additional observations from a re-analysis of the deposited data

How the results depend on the processing

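The members' log2 fold changes were judged in 1022 alternatives, which include the unchanged main fit at an adjusted p under 0.05. Of these, 984 stayed on their side of the threshold, 20 lost the call and 18 gained it. The sign changed in 10 refits of *BTC* and *ERBB3* values that were called in neither fit, and in 0 of a called value. The other changes of calls are given beside the results or below. With the library size alone, 3 instead of 5 members were called higher with ML355, since *TGFA* and *NRG1* were lost. The number of members lower with ML355 ranged from 0 to 2 when each library was left out, being 1 without replicate 2 of OV-L1-FGGY with DMSO and 0 without its replicate 3 or without replicate 1 of the ML355 group. For the NVR-labelled libraries against OV-CTRL, 1 member instead of 0 was called higher at an adjusted p under 0.05, with DESeq2, with limma voom, with DESeq2 size factors in edgeR and without replicate 3 of the ML355 group, each time *ERBB4* at 3 counts or fewer. There, 3918 genes of the whole table were called higher at an adjusted p under 0.05 instead of 2593, and between 1602 and 2995 when each library was left out (1602 without replicate 2 and 1622 without replicate 3 of OV-CTRL), with 0 to 1 members. A filter of 10 counts in every library removed low genes by construction, among them *ERBB4*, *BTC* and *NRG1*, and ended the call of *HBEGF* between both DMSO groups, although it passed that filter: it left 4409 genes and 2 members higher in the NVR-labelled libraries against OV-L1-FGGY with DMSO, 2 members higher and 4189 genes lower in OV-L1-FGGY with DMSO against OV-CTRL, and 0 members higher in the difference between both changes, where leaving out single libraries gave 0 to 1. The cause of the other shifts was not tested. With the replicate block the numbers of genes called were 7583, 4754, 12874, 11979 and 5649 instead of 8004, 5316, 13143, 12263 and 6093, in the order of the comparisons above, and no call among the members changed. Deviations of same-numbered libraries from their group means correlated at −0.0258, −0.0348 and −0.0521 for ML355 against DMSO. For the NVR-labelled libraries against OV-CTRL the correlations were 0.0514, 0.17 and −0.354. With 3 libraries per group, these values cannot decide whether same-numbered libraries shared a culture or batch. Depth limited *BTC*, *NRG1* and *ERBB4*, which had 3 counts or fewer, or few more, in at least 1 group.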
